A study of Mus musculus with 6 samples.

Results

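The complement system of microglia was examined after acute ischemic stroke (AIS) through 9 genes that encode its components and receptors. These were C1qa, C1qb and C1qc, C3 and C4b, the receptors C3ar1 and C5ar1, and Itgam and Itgb2, the subunits of complement receptor CR3. All array probes that are not controls and whose accession belongs to one of these genes were taken, which gave 12 of the 56605 such probes and 9 of the 23462 genes they name. C3, C4b and Itgam had 2 probes each and the other genes 1.

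The control mice were PGC-1α f/f littermates, which carried a loxP-flanked PGC-1α allele with an eGFP gene that Cre recombinase was to switch on. The mPGC-1α mice also had a Cre that tamoxifen activates, carried on an allele of Cx3cr1, which microglia and other mononuclear phagocytes express. An interval after tamoxifen was meant to limit the overexpression of PGC-1α to microglia. PGC-1α, the product of Ppargc1a, is a coactivator of transcription best known for promoting mitochondrial biogenesis. All mice were male, on a C57BL/6 background, and labelled as 10 weeks old. By the study's methods stroke was induced, after tamoxifen, by a transient block of the middle cerebral artery, and microglia were then pulled out with magnetic beads against the receptor P2RY12. The time between stroke and isolation is not given for the arrays. There were 3 control and 3 mPGC-1α samples, 1 single-colour Agilent array each. Nothing in the labels says that samples of a group came from separate animals, so the p-values measure only the spread between these samples. The only contrast in the labels is between the groups, and it asks whether the levels of these genes in microglia after AIS depend on the genotype.

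Complement is a cascade of proteins that marks microbes, dying cells and debris for removal. C1q, built from the A, B and C chains, starts the classical pathway, which cleaves C4 and then C3. Fragments of C3 coat the target and are read by CR3 on phagocytes, while the small fragments C3a and C5a act through C3ar1 and C5ar1 to attract and activate them. In the brain microglia are the main source of C1q, and C1q and C3 tag synapses that microglia take up.

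A level here is the log2 of a probe's processed signal after subtraction of the log2 75th percentile of its array, and a difference is the mPGC-1α mean less the control mean. Signal was well above background on 71.0% to 86.5% of spots per array, and 0 spots were saturated. The 75th percentile was 1179, 710 and 976 units on control arrays 1, 2 and 3. It was 759, 702 and 893 units on mPGC-1α arrays 1, 2 and 3, lower than on the control array of the same number each time. Arrays 1 and 2 of each group lay on the first slide and array 3 of each on the second. Array 3 of the controls had 3010 spots that the scanner software marked as outliers, and array 3 of the mPGC-1α group had 4931, against 549 to 1094 on the other 4. Marked spots were left out of the main test. The levels of every array are given below with the marked spots kept, and each marked value is named. Complement messages can change through the number of cells that carry them or through the amount in each cell, and an array of bulk RNA cannot tell these apart. The 12 microglia markers, among them P2ry12, Tmem119 and Sall1, were well above background on 6 of 6 arrays, and their summed level was 8.06 to 8.22 on control and 8.11 to 8.25 on mPGC-1α arrays. A summed level is the log2 of the sum of the unlogged levels of a list, so its brightest markers weigh most. Of the 12 microglia markers, 7 lay higher and 5 lower in mPGC-1α, and 0 were called. Olfml3 had the largest difference, -1.36, with overlapping groups. It read 4.29, 1.45 and 4.35 on control arrays 1, 2 and 3, against 1.87, 1.74 and 2.39 on mPGC-1α arrays 1, 2 and 3.

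The overexpressed gene itself was not higher on the arrays labelled mPGC-1α. Ppargc1a on the brighter probe (A_51_P279038) read -1.05, -0.55 and -0.53 on control arrays 1, 2 and 3. It read -1.08, -0.86 and -1.12 on the arrays labelled mPGC-1α, a difference of -0.31 (standard error, SE, 0.24, limma adjusted p = 0.798). The second probe differed by -0.41. Where these probes lie relative to the transgene was not examined, so mPGC-1α below is the label of an array.

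None of the 9 genes was called as different between the groups. Of the 11 member probes that could be tested, which stand for 8 genes, 0 had a limma adjusted p below 0.05, and the smallest was 0.715. The same test called 0 of all 40745 tested probes (0%). An unadjusted p below 0.05 was reached by 0 of the 11 member probes and by 2921 of all probes (7.17%). With marked spots kept, all 12 probes could be tested and again 0 were called, with a smallest adjusted p of 0.663, that of C1qc. C1qc was then the 1 probe of the 12 with an unadjusted limma p below 0.05 (0.0356), which 3067 of all 41387 probes reached. Of these 12 probes, 8 lay higher and 4 lower in mPGC-1α. The groups did not overlap in 4, all higher, against 7.10% of all 41387 probes tested in that way that lay higher without overlap. The median difference over the 12 was 0.17, and over all probes 0.08. In the authors' own normalized log2 values 6 of the 12 lay higher and 6 lower, with a median of 0.01.

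**Figure D1:**
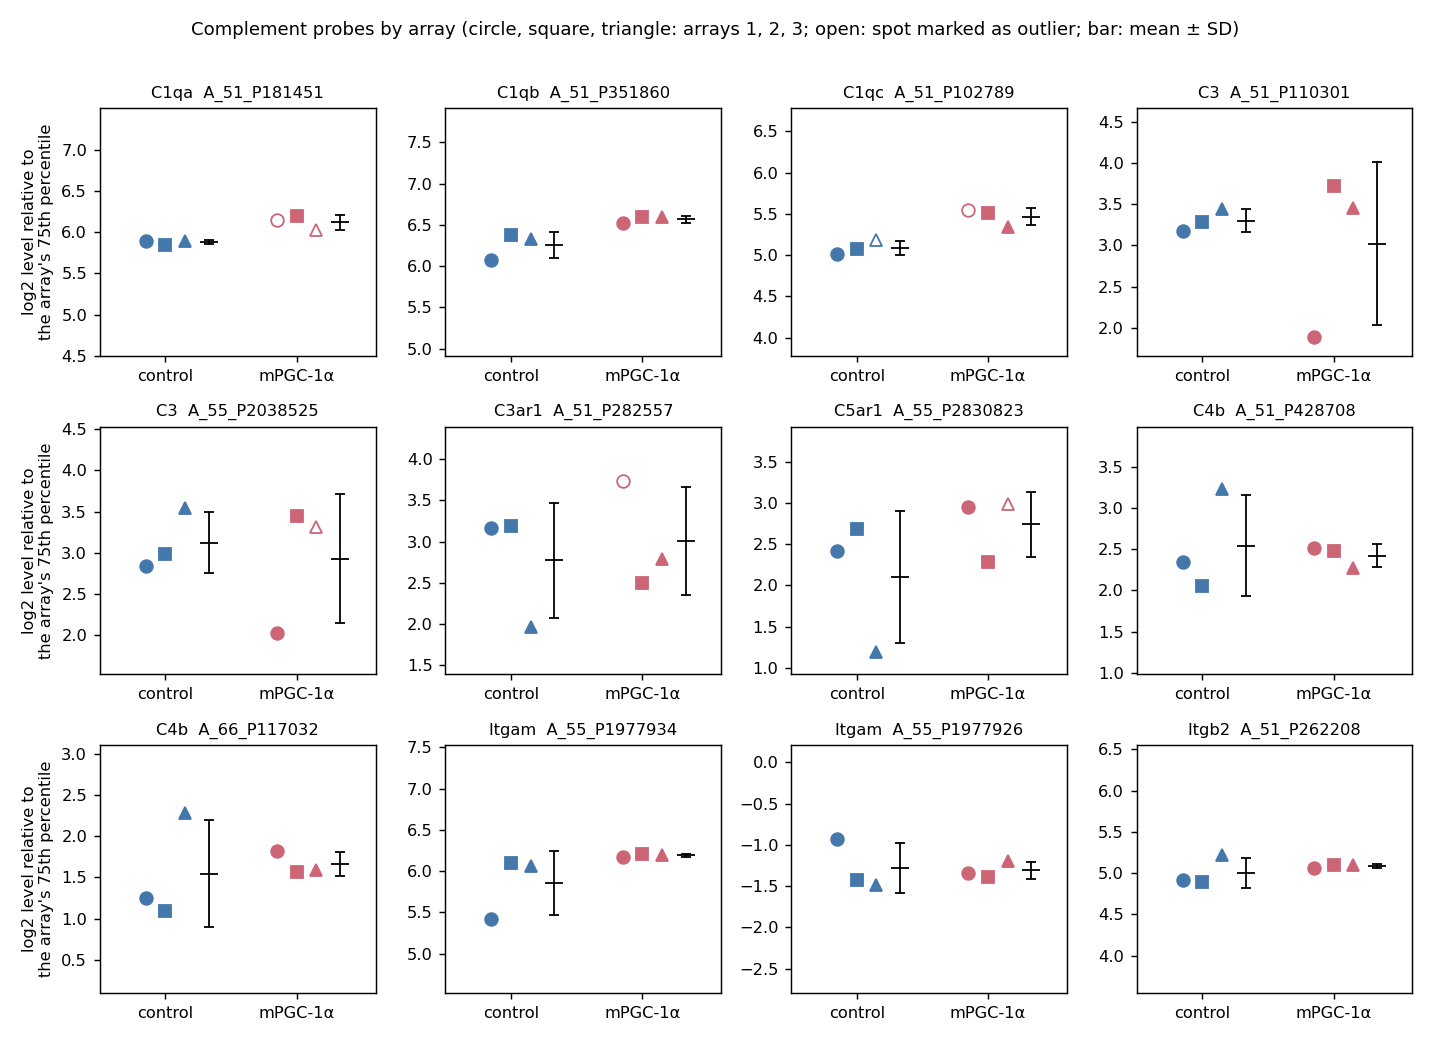
Level of each of the 12 complement probes on each array, as log2 relative to the 75th percentile of that array. Circles, squares and triangles are arrays 1, 2 and 3 of a group, open symbols are spots marked as outliers, and bars are the mean ± SD of 3 arrays; each panel has its own origin but the same span. The groups stand apart for C1qa, C1qb, C1qc and the brighter Itgam probe under this scaling (they overlap in the authors' own normalized values), and 1 array stands away from the rest for C3, C5ar1 and C4b.

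The C1q chains were the nearest to a common difference. C1qa, the A chain, read 5.90, 5.85 and 5.90 on control arrays 1, 2 and 3, against 6.14, 6.20 and 6.02 on mPGC-1α arrays 1, 2 and 3. C1qb, the B chain, read 6.07, 6.37 and 6.33 on the control arrays, against 6.52, 6.59 and 6.59 on the mPGC-1α arrays. C1qc, the C chain, read 5.02, 5.07 and 5.19 on the control arrays, against 5.54, 5.51 and 5.35 on the mPGC-1α arrays. Under this scaling, every mPGC-1α array lay above every control array for each chain. The C1qa spots of mPGC-1α arrays 1 and 3 were marked as outliers, which left 1 value in that group, so C1qa was not tested with marked spots left out. The C1qc spots of control array 3 and mPGC-1α array 1 were marked too.

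C1qb averaged 6.26 ± 0.16 (SD, n = 3) in the controls and 6.57 ± 0.04 (SD, n = 3) in mPGC-1α, 1.24-fold apart. The difference was 0.31 (SE 0.16, 95% interval -0.04 to 0.66), with a limma adjusted p = 0.715. C1qc differed by 0.38 (SE 0.21, 2 unmarked arrays per group, limma adjusted p = 0.742). With marked spots kept, C1qc differed by 0.38 (SE 0.15, 95% interval 0.03 to 0.72, adjusted p = 0.663), and C1qa by 0.24 (SE 0.14, 95% interval -0.09 to 0.56, adjusted p = 0.735). An exact permutation test gave p = 0.1 for each chain, two-sided, the smallest value that 3 against 3 arrays allow. The difference within the first slide was 0.30 for C1qa, 0.33 for C1qb and 0.48 for C1qc, and on the second slide 0.12, 0.26 and 0.16. The sign was the same on both slides for each chain. The percentile subtracted was, however, lower on each mPGC-1α array than on the control array of its number. Subtracting it raises the mPGC-1α levels relative to the controls on both slides. The shared sign is therefore no check of the direction that is independent of the scaling.

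That direction depended on the scaling on the 75th percentile. In the authors' own normalized log2 values, C1qa read 16.1, 15.6 and 15.8 on the control arrays, against 15.8, 15.8 and 15.8 on the mPGC-1α arrays, or -0.04 between the means. C1qb averaged 16.2 ± 0.14 (SD, n = 3) in the controls and 16.2 ± 0.08 (SD, n = 3) in mPGC-1α there. C1qc kept its sign, with 15.2 ± 0.19 (SD, n = 3) against 15.3 ± 0.09 (SD, n = 3) and a difference of 0.15. The groups overlapped for all 3 chains, and in those values 0 of the 12 probes had groups that did not overlap. Quantile normalization, which gives every array the same distribution, put C1qa at -0.04, C1qb at 0.03 and C1qc at 0.17 with marked spots kept. With marked spots left out C1qc was at 0.12.

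The C1q genes are neighbours. C1qb, C1qc and C1qa follow each other on chromosome 4 with no other gene of the RefSeq table between them, between Ephb2 and Epha8 among protein-coding genes. Their array-to-array patterns were also the closest among the members. The root mean square difference of levels, each centred on its own mean over the 6 arrays, was compared. It was 0.09 for C1qa and C1qc, 0.11 for C1qb and C1qc and 0.13 for C1qa and C1qb. The next pairs were C1qb with the brighter Itgam probe at 0.13 and C1qa with Itgb2 at 0.14. This measure is small wherever both probes vary little, and the order of the pairs under other scalings was not examined. Promoters are printed for C1qb, C1qc and Itgam, those of the C1q genes and Itgam for which the RefSeq promoter table of assembly GRCm38.p6 had an entry. It had one for 6 of the 9 genes and none for C1qa, C4b and Itgb2. Each window runs from 250 bases before to 50 bases after the annotated start, read 5′ to 3′ on the strand of the gene. Capitals mark GAGGAA, the core of the element bound by PU.1, the ETS factor of myeloid cells, searched on both strands, so that TTCCTC is the same word on the other strand.
C1qb promoter, chr4:136886151-136886450, minus strand: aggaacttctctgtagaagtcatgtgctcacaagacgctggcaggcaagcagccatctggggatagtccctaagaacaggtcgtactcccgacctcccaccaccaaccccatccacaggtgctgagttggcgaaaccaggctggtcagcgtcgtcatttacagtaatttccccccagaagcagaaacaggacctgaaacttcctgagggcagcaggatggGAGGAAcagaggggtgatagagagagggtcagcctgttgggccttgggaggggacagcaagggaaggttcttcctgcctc
C1qc promoter, chr4:136892865-136893164, minus strand: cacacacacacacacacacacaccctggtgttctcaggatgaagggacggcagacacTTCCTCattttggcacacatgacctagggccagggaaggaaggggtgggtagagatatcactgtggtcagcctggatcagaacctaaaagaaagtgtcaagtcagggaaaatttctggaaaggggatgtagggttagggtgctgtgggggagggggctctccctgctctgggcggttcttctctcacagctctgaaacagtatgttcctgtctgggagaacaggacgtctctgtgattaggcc
Itgam promoter, chr7:128062390-128062689, plus strand: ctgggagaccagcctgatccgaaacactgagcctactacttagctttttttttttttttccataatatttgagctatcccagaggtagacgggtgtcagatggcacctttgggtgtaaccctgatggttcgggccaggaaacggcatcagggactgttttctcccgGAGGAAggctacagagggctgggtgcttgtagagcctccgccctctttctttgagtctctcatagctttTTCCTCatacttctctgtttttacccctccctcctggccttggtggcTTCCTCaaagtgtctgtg

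The word begins 30 bases upstream of the start of C1qb on the printed strand and 193 bases upstream of C1qc on the opposite one. Itgam holds it 3 times, at 84 bases upstream on the printed strand, and at 15 bases upstream and 32 bases downstream on the opposite one. It is a common word, present in 28.3% of the 32851 promoters of the same length in the table. The other 3 promoters, of C3, C3ar1 and C5ar1, do not hold these letters. TTGCNNAA, a pattern of C/EBP factors, was found in C3, 45 bases upstream (10.8% of all promoters), and GAAANNGAA, a pattern of IRF factors, in C5ar1, 66 bases upstream (8.56%). GGANTTTCC, a pattern of NF-κB, was found in 0 of the 6 (1.25%). All were searched on both strands, and a match describes the letters of the window and not a bound site.

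C3, the protein on which all complement pathways converge, had a difference that turned on 1 array. Its brighter probe (A_51_P110301) read 3.17, 3.28 and 3.45 on control arrays 1, 2 and 3, against 1.89, 3.72 and 3.46 on mPGC-1α arrays 1, 2 and 3. The second probe (A_55_P2038525) read 2.84, 2.99 and 3.54 on the control arrays, against 2.03, 3.45 and 3.31 on the mPGC-1α arrays, with the last value marked. On both probes mPGC-1α array 1 was the lowest of the 6. The other mPGC-1α arrays lay above the control range of the brighter probe, array 3 barely. The brighter probe averaged 3.30 ± 0.14 (SD, n = 3) in the controls and 3.02 ± 0.99 (SD, n = 3) in mPGC-1α, and its difference was -0.28 (SE 0.41, limma adjusted p = 0.900). Without mPGC-1α array 1 it was 0.29, so the sign of the C3 difference turned with that array. The brighter probe differed by -0.42 on the first slide, which holds that array, and by 0.01 on the second. The second C3 probe differed by -0.38 without the marked spot (SE 0.41, 2 mPGC-1α arrays, limma adjusted p = 0.854) and by -0.19 with it.

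The same array had the lowest summed level of the 10 neutrophil markers. It was 7.59, 8.03 and 8.10 on control arrays 1, 2 and 3, against 7.20, 8.26 and 8.15 on mPGC-1α arrays 1, 2 and 3. All 10 were well above background on 6 of 6 arrays, S100a8, Ly6g and Mpo included, 3 lay higher and 7 lower in mPGC-1α, and 0 were called. The 12 markers of monocytes and border macrophages had their lowest sum on that array too, at 5.36 against 5.69 to 6.45 on the other 5. The part of these cells in the C3 values was not tested. The genes whose pattern came closest to that of the brighter C3 probe, of 16190 genes, were Mad2l1, Brpf1 and Gm4371, with root mean square differences of 0.14, 0.15 and 0.15 against a median of 0.68.

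C4b, which encodes the C4 protein of the mouse, stood out on another array. On the brighter probe (A_51_P428708) it read 2.35, 2.05 and 3.23 on control arrays 1, 2 and 3, against 2.52, 2.48 and 2.27 on mPGC-1α arrays 1, 2 and 3. On the second probe (A_66_P117032) it read 1.25, 1.097 and 2.29 on the control arrays, against 1.82, 1.56 and 1.59 on the mPGC-1α arrays. Control array 3 was the highest on both probes, and all mPGC-1α arrays lay below it. The means were 2.54 ± 0.61 (SD, n = 3) and 2.42 ± 0.14 (SD, n = 3) on the brighter probe, a difference of -0.12 (SE 0.29, limma adjusted p = 0.943), and the second probe had the other sign, 0.11 (SE 0.31, adjusted p = 0.949). The brighter probe differed by 0.30 on the first slide and by -0.96 on the second. Without control array 3 it was 0.22. C4b and its near-identical copy C4a are close enough that a probe may catch RNA of both, so values of either gene are uncertain in that respect.

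The anaphylatoxin receptors shared their lowest array. C3ar1, the receptor of C3a, read 3.17, 3.18 and 1.97 on control arrays 1, 2 and 3, against 3.74, 2.49 and 2.79 on mPGC-1α arrays 1, 2 and 3, with the first of these marked. C5ar1, the receptor of C5a, read 2.42, 2.69 and 1.19 on the control arrays, against 2.95, 2.29 and 2.98 on the mPGC-1α arrays, with the last marked. Control array 3 was the lowest of the 6 for both, and apart from it the groups overlapped. C5ar1 had the largest difference of the 12 probes, 0.52 without the marked spot (SE 0.43, 2 mPGC-1α arrays, limma adjusted p = 0.810) and 0.64 with it (SE 0.38, 95% interval -0.21 to 1.48, adjusted p = 0.734). The first slide, which does not hold control array 3, gave 0.06, and the 2 arrays on the second gave 1.79. C3ar1 differed by -0.13 without the marked spot (SE 0.37, adjusted p = 0.951) and by 0.23 with it, so its sign depended on 1 spot. The first slide gave -0.06 and the second 0.82. The genes nearest to C3ar1 in pattern, of 16191, were Tubb6, Snx8 and Pdgfa, with root mean square differences of 0.11, 0.12 and 0.13 against a median of 0.61. C5ar2, the second receptor of C5a, read 2.55, 2.47 and 1.85 on the control arrays, against 2.77, 2.23 and 2.83 on the mPGC-1α arrays, with control array 3 again the lowest.

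CR3, the integrin that binds iC3b, was read through its αM and β2 subunits. Itgam, the αM subunit also known as CD11b, read 5.41, 6.09 and 6.06 on control arrays 1, 2 and 3, against 6.17, 6.21 and 6.19 on mPGC-1α arrays 1, 2 and 3 on its brighter probe (A_55_P1977934). Under this scaling the mPGC-1α arrays lay close together and above all controls, of which array 1 was the lowest. Control array 1 also had the highest 75th percentile of the 6 arrays, 1179 units. The means were 5.86 ± 0.38 (SD, n = 3) and 6.19 ± 0.02 (SD, n = 3), a difference of 0.33 (SE 0.21, 95% interval -0.13 to 0.80, limma adjusted p = 0.758) with an exact permutation p = 0.1. Without control array 1 it was 0.11. The first slide gave 0.44, the second 0.13, and the authors' normalized values 0.06 with overlapping groups. In the authors' values control array 1 was the lowest too, at 15.70, against 15.79 and 15.94 on control arrays 2 and 3. The dim Itgam probe (A_55_P1977926), designed on another RefSeq transcript, read -0.93, -1.43 and -1.48 on the control arrays, against -1.34, -1.39 and -1.19 on the mPGC-1α arrays. Its difference was -0.03 (SE 0.25, adjusted p = 0.986), so the probes of this gene disagreed in sign.

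Itgb2, the β2 subunit that Itgam shares with the other leukocyte integrins, varied the least of the 9 genes over the 6 arrays under the 75th percentile scaling. It read 4.91, 4.89 and 5.22 on control arrays 1, 2 and 3, against 5.06, 5.10 and 5.10 on mPGC-1α arrays 1, 2 and 3, so all mPGC-1α values fell between control values. Its difference was 0.08 (SE 0.17, 95% interval -0.29 to 0.45, limma adjusted p = 0.929), close to the median of all probes. Quantile normalization and the authors' values gave it the other sign, -0.12 and -0.08.

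**Figure D2:**
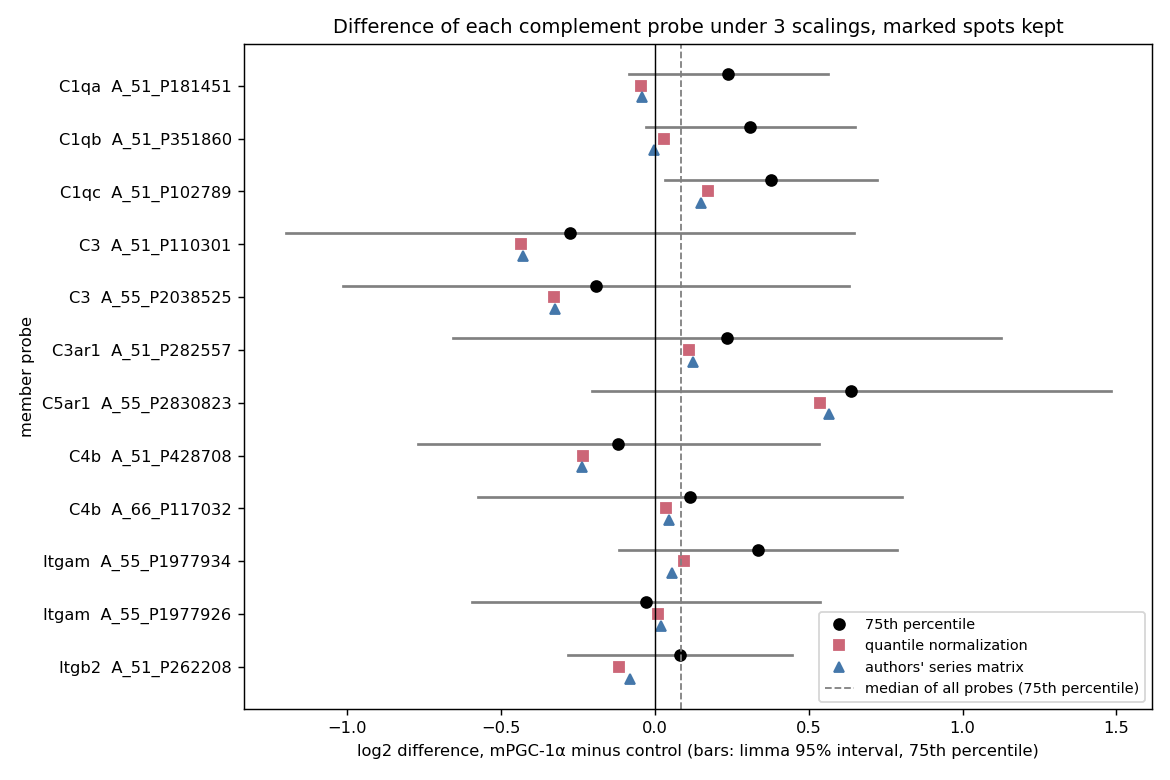
Difference of each complement probe between mPGC-1α and control on the log2 scale, with marked spots kept, under 3 scalings. Black points with bars are the 75th percentile scaling and its limma 95% interval, squares quantile normalization and triangles the authors' normalized values; the dashed line is the median of all probes, 0.08. The C1qa, C1qb and C1qc points move from 0.24, 0.31 and 0.38 to -0.04, 0.00 and 0.15 in the authors' values, and the interval of C1qc alone lies wholly above 0.

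The members differed in how much they varied between arrays. The standard deviation over the 6 arrays was 0.14 for C1qa, 0.20 for C1qb, 0.22 for C1qc and 0.12 for Itgb2, and 0.30 for the brighter Itgam probe, all below the median of 0.34 over all probes. It was 0.65 for the brighter C3 probe, 0.62 for C3ar1, 0.66 for C5ar1 and 0.40 for the brighter C4b probe. Of all tested probes, 1.80% varied less than Itgb2 and 3.39% less than C1qa, while 86.9% varied less than C3 and 87.4% less than C5ar1. The lowest of the 6 values was on a control array for 10 of the 12 probes and on mPGC-1α array 1 for the other 2, both of C3. The same count was not made over all probes. Of all tested probes, with marked spots left out, 60.1% had a higher mean in mPGC-1α, which is another measure. Whether low values on control arrays are particular to complement was not tested. The array with most of the highest values was shared between control array 3 and mPGC-1α array 2, with 4 probes each.

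**Figure D3:**
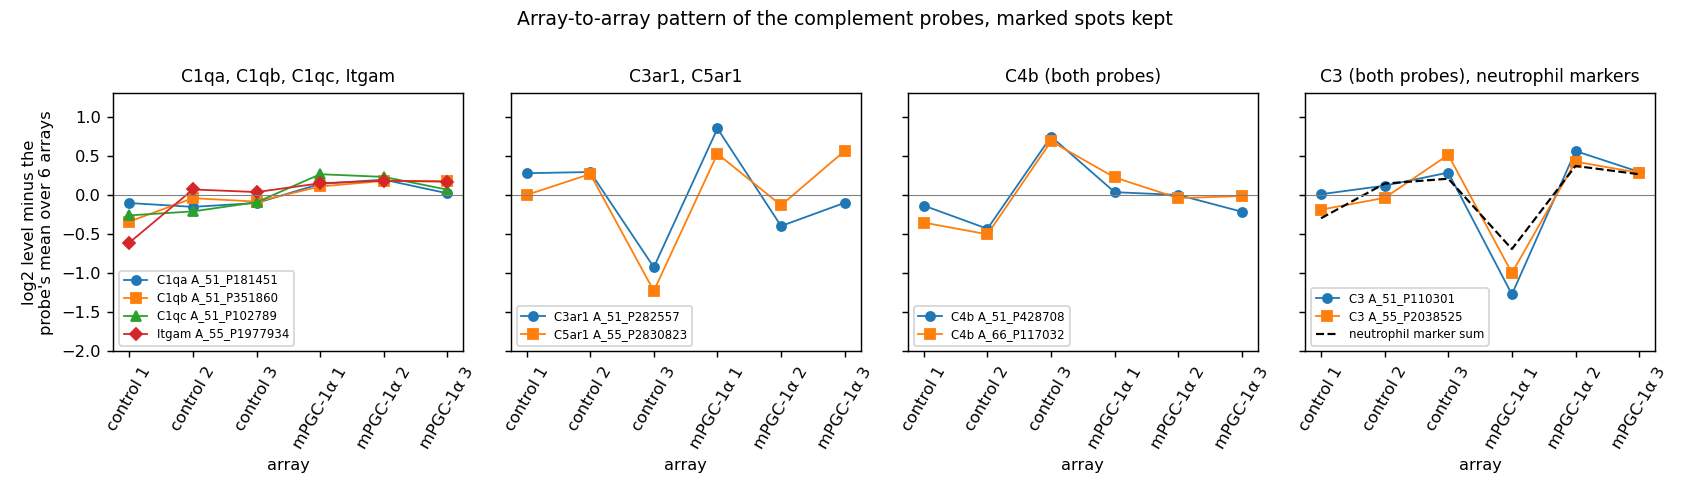
Array-to-array pattern of the complement probes, each as its log2 level minus its own mean over the 6 arrays, with marked spots kept. C1qa, C1qb and C1qc stay within a narrow band, the brighter Itgam probe is low on control array 1, C3ar1 and C5ar1 share a low value on control array 3, both C4b probes share a high value there, and both C3 probes are low on mPGC-1α array 1, as is the summed level of the 10 neutrophil markers (dashed).

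The genes nearest to the mean pattern of the C1q chains, of 16190 genes, were Prrc1, Gphn and Man2b1, with root mean square differences of 0.04, 0.04 and 0.05 against a median of 0.31. For the brighter Itgam probe they were Proser3, Zcchc9 and Luc7l2, at 0.02, 0.03 and 0.03 against a median of 0.34. The patterns of C1q and Itgam were thus also those of genes outside complement.

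Markers of other brain cell types lay mostly higher in mPGC-1α. The 10 oligodendrocyte markers all lay higher in mPGC-1α, with a summed level of 3.61 to 4.36 on control and 4.59 to 5.11 on mPGC-1α arrays, and so did the 10 astrocyte markers, at 3.99 to 4.41 and 4.53 to 6.07. Of 10 neuron markers 9 lay higher, at 5.33 to 6.04 and 6.02 to 6.22, and of 10 endothelial and mural markers 7 did, at 5.13 to 5.16 and 5.16 to 5.27, with 2 of those 10 above background on no array. The neuron sum came mostly from Snap25, at 5.22 to 6.10 over all arrays, and the endothelial and mural sum from Acta2, at 4.94 to 5.08. The astrocyte sum of 6.07 was that of mPGC-1α array 2 alone, where Aldoc read 4.74 and S100b 4.16. On mPGC-1α arrays 1 and 3 that sum was 4.53 and 4.80. Of all tested probes, with marked spots left out, 60.1% lay higher in mPGC-1α. All 8 choroid plexus markers lay lower, at 6.30 to 6.92 and 6.28 to 6.81. No marker of any list was called, and the part of these cells in the complement differences was not tested. Cx3cr1, the gene that drives Cre, lay lower in mPGC-1α on probe A_52_P99810. It read 4.19, 3.66 and 4.11 on control arrays 1, 2 and 3, against 2.79, 2.36 and 3.13 on mPGC-1α arrays 1, 2 and 3. The groups did not overlap, and the difference was -1.23 (SE 0.24, limma adjusted p = 0.684). The part of the Cre allele in these values was not tested. A second Cx3cr1 probe, with marked spots kept, differed by -0.33 and its groups overlapped.

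A list of 44 other complement genes was read through the brightest tested probe of each. Of these, 34 could be tested, 16 lay higher and 18 lower in mPGC-1α, and 0 were called by limma in either direction. An unadjusted limma p below 0.05 was reached by 2 of the 34, C4a and Cd55b, against 7.17% of all tested probes. The median difference was -0.01, against 0.11 over the brightest probes of all named genes. By role, 6 lay higher and 6 lower among the 12 genes of the classical and lectin pathways, 2 and 1 among the 3 of the alternative pathway, 1 and 3 among the 4 of the terminal pathway, 4 and 2 among the 6 receptors, and 3 and 6 among the 9 regulators. The other 10 could not be tested, because their probes were too dim or lost values to marked spots, among them C6, C8a and C8b of the terminal pathway.

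Of the 32 genes measured on all 6 arrays, 1 lay higher in mPGC-1α with no overlap and 2 lower. Over the brightest probes of all 16191 named genes so measured, 8.48% lay higher and 3.45% lower without overlap. All 3 are regulators that protect cells from complement. Cr1l, known as Crry, the rodent inhibitor of C3 convertases, averaged 2.48 ± 0.07 (SD, n = 3) in the controls and 2.72 ± 0.17 (SD, n = 3) in mPGC-1α, a difference of 0.24 (SE 0.18, limma adjusted p = 0.793). Cd55, decay-accelerating factor, read -0.54, -0.57 and 0.05 on the control arrays, against -0.81, -0.69 and -0.70 on the mPGC-1α arrays, or -0.38 between the means (SE 0.25, adjusted p = 0.767). Its paralog Cd55b read -1.14, -1.16 and -0.54 on the control arrays, against -1.87, -1.59 and -1.58 on the mPGC-1α arrays, or -0.73 between the means (SE 0.26, adjusted p = 0.684). The other 2 Cd55 probes also lay lower, by -0.61 and -0.997, whereas the second Cd55b probe lay higher, by 0.31. Cd55 and Cd55b are close in sequence, and their probes may share RNA. In the authors' values the brightest probes of Cr1l, Cd55 and Cd55b differed by 0.13, -0.39 and -0.78, so these signs were kept.

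The genes with the most negative differences overlapped between the groups. Fcnb, a ficolin of the lectin pathway made by myeloid cells, read 1.48, 1.29 and 2.25 on the control arrays, against -1.37, 1.34 and 1.03 on the mPGC-1α arrays, so that mPGC-1α array 1, the array with the lowest C3 and neutrophil marker sum, was far below the rest. Its difference was -1.34 (SE 0.62, limma adjusted p = 0.706). C4a read 0.58, -1.08 and 0.19 on the control arrays, against -1.15, -1.22 and -0.91 on the mPGC-1α arrays, and its difference was -0.99 (SE 0.39, adjusted p = 0.686). Without control array 2, which lay near the mPGC-1α values, C4a differed by -1.48 with a limma adjusted p = 0.00745, and it was then the 1 gene of the list that was called. That fit called 2102 of all 39288 tested probes and 1 of the 34 tested genes of the list, so C4a did not stand alone in it. Fcnb and C4a, the most negative of the list, and C5ar2 were chosen after their values were seen.

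**Figure D4:**
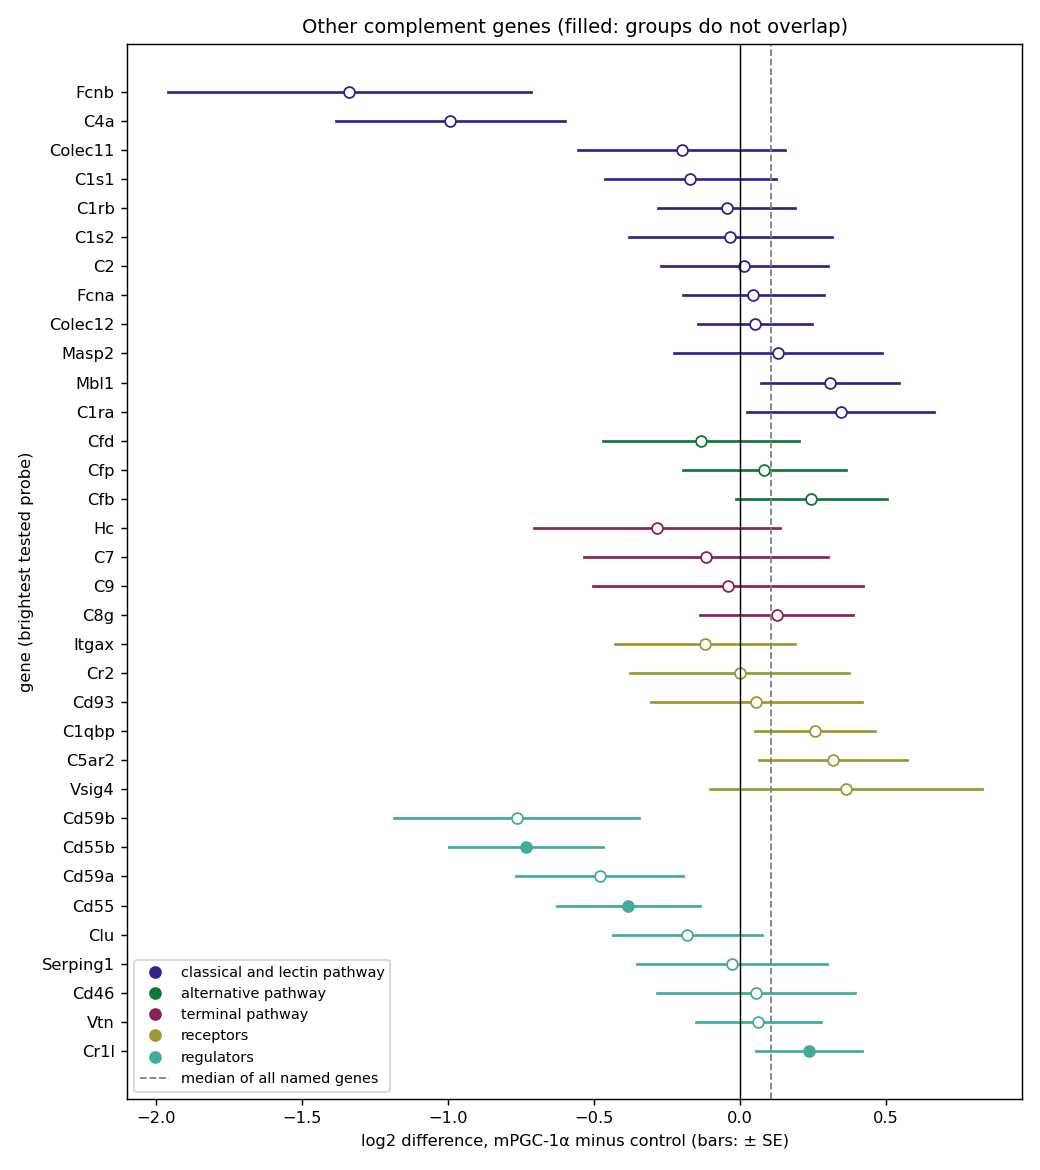
Difference between mPGC-1α and control for the 34 tested genes of the wider complement list, on the log2 scale with ± SE bars, by role. Filled points are genes whose groups do not overlap (Cr1l higher, Cd55 and Cd55b lower), and the dashed line is the median of all named genes, 0.11. The genes run from -1.34 for Fcnb to 0.36 for Vsig4, with 4 of the lowest 6 among the regulators.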

How the data were processed

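RNA of magnetically selected microglia was measured by the authors on Agilent Mouse 8×60k arrays, and 3 control and 3 mPGC-1α samples were grouped by their labels. The labels name Cy3 in one field and Cy5 in another, and the 1 green channel of the files was used. The deposited scanner files give the intensity of each spot on a linear scale from Agilent Feature Extraction 11.5.1.1, with background subtracted and without normalization between arrays. The authors' series matrix, made in GeneSpring, holds log2 values for 46731 probes. Its columns correlated with their own arrays at r of at least 0.999 across probes, each had the same maximum of 17.4, and its medians lay between 7.78 and 7.79. Its exact normalization is not given in the sources used here.

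The log2 processed signal minus the 75th percentile of each array was computed in R 4.3.3 with data.table (version 1.17.8). The percentile counted marked spots, because these were mostly bright. Their median signal was 9759 units or more on each array, and leaving them out would lower the percentile by up to 0.50 on the log2 scale (mPGC-1α array 3). The main test left out spots with a mark as non-uniform or as population outliers, and repeated spots were averaged per probe. Testing required a signal well above background on all unmarked arrays (at least 2) of at least 1 group, with at least 2 values per group. The two-sided test was that of limma 3.58.1, with lmFit on group alone and eBayes with trend, and p-values were adjusted by Benjamini-Hochberg across the 40745 probes that could be tested, of which 3750 lacked a value, at a threshold of 0.05. An exact permutation test over all assignments of the 6 values was run on each member probe. Genes were named by matching accessions to RefSeq (GRCm38.p6), which named 33767 of the 56605 probes (59.7%). No array coordinates are given, as the array grid was made for another build. The number of arrays limits the precision.

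The members and gene lists were chosen with earlier results of these data known, and Fcnb, C4a and C5ar2 were added once their values were seen. Wider complement genes are named where all 6 arrays measured them and the groups did not overlap, and the 3 genes with the closest pattern were named for members that a result turned on.

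Alternatives were quantile normalization, normexp (offset 50, on the median spot intensity) with quantile normalization, the authors' log2 values, other filters on dim probes, slide or replicate number as a block, eBayes without trend, marked spots kept, averaging over a gene's tested probes, and each array left out. The percentile over unmarked probes, and marked spots kept together with other settings, were added after seeing the data. Whether replicate numbers pair the samples was checked by correlating each array's deviations from its group mean. The correlation was 0.245, 0.223 and 0.175 for arrays of the same number and -0.331 to 0.029 for the others. All 3 values for a shared number were above 0.1, although no label says what the numbers stand for. Pairing by number entered only the alternative fits that block on it. The main test and the permutation test did not use it, so their SEs, intervals and p-values ignore any pairing. The procedure was tested on simulated data.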

Additional observations from a re-analysis of the deposited data

How the results depend on the processing

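None of the complement members was called under any alternative tried, and the adjusted p of their probes ranged from 0.204 to 1.00 over these. With the replicate number as a block, 0 of the 8 tested members and 0 of the 34 wider genes were called, as was 1 of all probes, and C1qb had an adjusted p = 0.430 at the same difference of 0.31. The block changed no other call. The SE under this block was 0.28 for the brighter C3 probe, against 0.41 in the main test, which ignores the numbers. For C1qc it was larger, 0.29 against 0.21. The wider list had 0 calls under each alternative except without control array 2, where 1 gene (C4a) was called, with marked spots left out or kept.

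Signs of differences that passed no test did turn. Quantile normalization gave -0.117 for Itgb2 and 0.011 for the dim Itgam probe, and with marked spots kept also -0.044 for C1qa and 0.111 for C3ar1. Normexp with quantile normalization gave -0.111 for Itgb2 and -0.018 for C1qc. The authors' values gave -0.042 for C1qa, -0.0022 for C1qb, -0.082 for Itgb2, 0.018 for the dim Itgam probe and 0.123 for C3ar1. C3ar1 was 0.066 with the replicate block, 0.235 with marked spots kept, with or without the block, and 0.024 with the percentile over unmarked probes, where the dim Itgam probe was 0.046. The cause was not tested.

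Leaving out each array in turn, with marked spots left out or kept, gave -0.63 to 0.29 for the brighter C3 probe and -0.52 to 0.26 for the second. The brighter C4b probe ranged from -0.36 to 0.22 and the second from -0.11 to 0.48, C3ar1 from -0.53 to 0.49, and the dim Itgam probe from -0.13 to 0.15. C1qa, C1qb, C1qc, C5ar1, Itgb2 and the brighter Itgam probe kept their sign in these, with C5ar1 between 0.06 (without control array 3) and 0.93 and Itgam between 0.11 (without control array 1) and 0.45. Precision is limited by how few arrays there were: the 95% interval of C1qb, which had the smallest SE of the member probes tested with marked spots left out, ran from -0.04 to 0.66.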
